A study of Mus musculus with 48 samples.

Results

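The comparison described here is between the skin of C3H/HeJ mice given an antibody against the IL-15 receptor beta chain (title il15rb, 3 arrays) and that of sham mice (title sham, 4 arrays), both at title week 5. These 7 arrays were chosen by their titles and treatment labels from the 48 mouse skin arrays of the series, which was about preventing alopecia areata with inhibitors of the IL-15 pathway. Both groups were of the strain C3H/HeJ, and a second label gives their weeks of treatment as 5/6. The 4 arrays titled PBS ip week 5, replicates 2 to 5, from mice given saline by the intraperitoneal route, are shown beside them as context. The labels give no age, dose, clone or sex of the mice. They do not say what the sham procedure was, nor whether sham mice were injected. From what is known of the study, the disease was induced by grafting skin from affected mice, so il15rb and sham skin can differ in more than the antibody. PBS ip skin is the labelled vehicle.

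Alopecia areata is an autoimmune loss of hair in which cytotoxic T cells that carry the receptor NKG2D gather around the hair follicle. IL-15 keeps memory CD8 T cells and natural killer cells alive. It is presented on its alpha chain by one cell to the beta chain (Il2rb) and the common gamma chain on a lymphocyte, and it signals through the kinases JAK1 and JAK3. The beta chain is shared with the IL-2 receptor, so an antibody against it meets both cytokines on lymphocytes that carry it.

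Values are log2 signals, and a difference is the il15rb mean minus the sham mean, so that 1 unit is a doubling. Of 13648 genes tested with limma over 47 arrays of 13 groups, 4 passed an adjusted p of 0.05 in il15rb against sham skin, which is 0.0293% of the genes. Per2 and Sh3d21 were higher (0.0147%), and Gzmc and Leo1 were lower (0.0147%). At an unadjusted p under 0.05 there were 788 higher genes (5.77%) and 797 lower genes (5.84%). The arrays of the 2 groups did not overlap for 852 higher genes (6.24%) and 942 lower genes (6.90%). When the fit and its filter on low values used only the 11 week 5 arrays of il15rb, PBS ip and sham, 76 genes passed (0.616% of 12335), 47 of them higher and 29 lower, and all 4 of the genes above were among them. The filter alone also moves the count, with 16 calls when it was set over the 7 il15rb and sham arrays and the spread was still that of 47. A fit of those 7 arrays alone called 22 genes, and of the 4 only Per2 was among them. Both fits are given below, named as the fit of 47 arrays and the week 5 fit. An SE after ± belongs to the fit of 47 arrays unless stated, also where the adjusted p beside it is that of the week 5 fit.

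The array of sham replicate 4 stood apart, with the hair keratins of a growing follicle. Its correlation with the other sham arrays was as low as 0.983, where the other 3 sham arrays lay between 0.992 and 0.995 and the il15rb arrays likewise between 0.992 and 0.995. Without it, none of the 4 genes passed in the fit of 47 arrays. The only gene that did was Rhebl1, a relative of the GTPase Rheb (0.00733% of 13641 genes, higher in il15rb skin by 0.72, and named after its value was seen). At an unadjusted p under 0.05 there were then 469 higher (3.44%) and 400 lower genes (2.93%). The arrays did not overlap for 1075 higher (7.88%) and 1046 lower genes (7.67%), counts that leaving out an array can hardly lower. In the week 5 fit 53 genes passed without sham replicate 4 (0.432% of 12282), and 47 of these were among the 76. The series' design text calls the replicates biological.

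Per2, a core repressor of the circadian clock, had log2 signals of 7.51, 7.65 and 7.97 in il15rb skin, against 5.92, 6.20, 5.76 and 6.18 in sham skin. All 3 il15rb arrays lay above all 4 sham arrays. The difference was 1.69 ± 0.32 (SE), a 3.23-fold higher signal, with an adjusted p of 0.0256 by limma. Without sham replicate 4 the difference was 1.75 with an adjusted p of 0.0515. The 4 PBS ip arrays, at 7.72, 7.69, 7.93 and 7.83, stood with the il15rb arrays. The other probe sets of Per2 also did not overlap, with differences of 0.40 and 0.58.

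Gzmc encodes granzyme C, a serine protease of cytotoxic granules. Its signals were 4.77, 5.19 and 4.56 in il15rb skin, against 7.40, 6.32, 6.75 and 8.09 in sham skin. The groups did not overlap. The difference was -2.30 ± 0.45 (SE, adjusted p = 0.0334), the most negative of the 13648 genes tested. The next, at -2.26, was Krtap15, a keratin associated protein with 13.40 in sham replicate 4 alone (adjusted p = 0.647). The il15rb values lie below 5.42, the highest lower quartile of these 7 arrays, a level taken here as near background. The 4.91-fold lower signal is thus an estimate that compression of low signals can make too small, and it is not a minimum. PBS ip skin had 7.03, 6.04, 7.11 and 7.31, which overlapped sham skin and lay above every il15rb array. Without sham replicate 4 the difference was -1.98, with an adjusted p of 0.195 in the fit of 47 arrays and 0.0353 in the week 5 fit.

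Sh3d21, a protein with SH3 domains, had 9.27, 8.92 and 8.61 in il15rb skin, against 8.11, 8.08, 8.09 and 7.73 in sham skin, with the lowest value in sham replicate 4. The difference was 0.93 ± 0.17 (adjusted p = 0.0256), and 0.84 without that array (adjusted p = 0.145). Leo1, a subunit of the PAF1 complex that travels with RNA polymerase II, had 8.08, 8.13 and 8.24 in il15rb skin, against 8.45, 8.67, 8.66 and 8.64 in sham skin. Its difference was small, at -0.45 ± 0.08 (adjusted p = 0.023), and -0.44 without sham replicate 4 (adjusted p = 0.0515). For both genes PBS ip skin lay nearer to il15rb skin, with means of 8.68 ± 0.19 for Sh3d21 and 8.19 ± 0.11 for Leo1 (SD, n = 4).

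**Figure D1:**
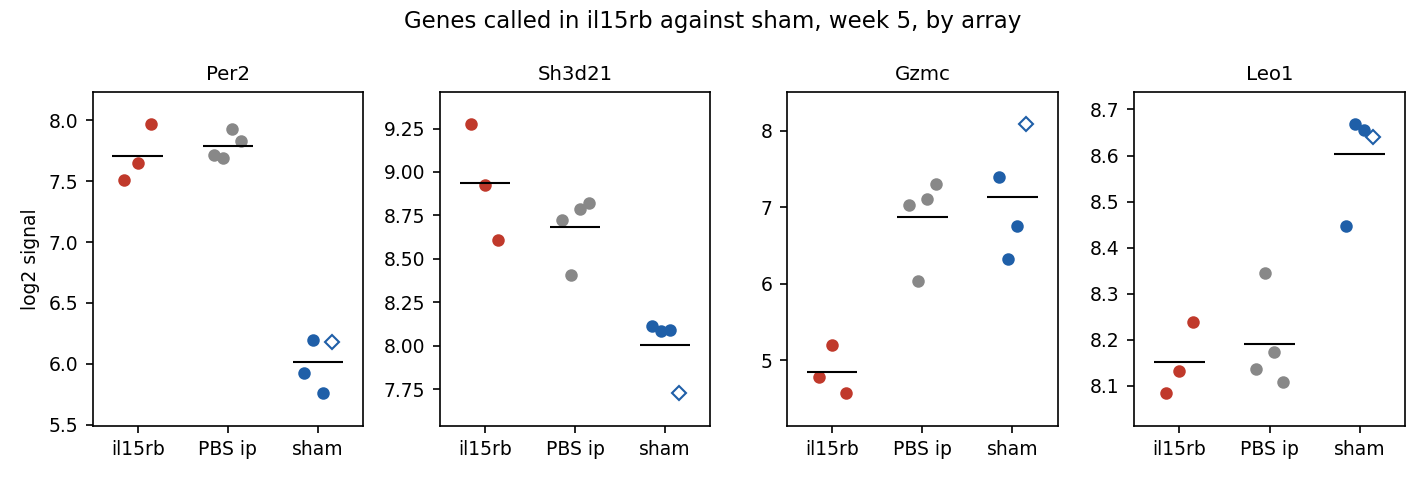
Log2 signal of the 4 genes called in the fit of 47 arrays, with 1 point per array, in il15rb (3 arrays), PBS ip (4) and sham skin (4) at week 5; black lines are group means and the open diamond is sham replicate 4. PBS ip stands with il15rb skin for Per2 and Leo1 and with sham skin for Gzmc, where it spans 6.04 to 7.31.

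The circadian clock is a feedback loop. CLOCK or NPAS2 pairs with BMAL1 (Arntl on this array) and binds E-box sequences, and the PER and CRY proteins made in turn repress the pair. Dbp, Tef and Hlf, made under the same loop, bind D-box sequences in further genes, and skin runs such a clock in its keratinocytes and hair follicles. Of 22 clock genes listed, 21 were tested and 17 had a positive difference. The il15rb and sham arrays did not overlap for 12 of them upward and 3 downward, where 6.24% and 6.90% of all genes did so. In the week 5 fit 7 passed as higher (Per1, Per2, Per3, Dbp, Tef, Hlf and Ciart) and 2 as lower (Clock and Npas2), where 0.381% and 0.235% of all genes did. Without sham replicate 4 the same fit called 7 higher and none lower. The list's median difference was 0.34, and 0.34 again without that array, beside 0.00 over all genes tested.

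The upstream sequences of 3 clock genes that were higher in the week 5 fit, picked because they hold an E-box or a D-box, show the elements of this loop. They are the 250 bases before the transcription start in RefSeq (GRCm38.p6, the first start listed), with capitals for the E-box CACGTG or the D-box TTATGTAA. Ciart, a repressor of the CLOCK and BMAL1 pair, lies on the minus strand with 3 E-boxes in its window at chr3:95882229-95882478. Per1, on the plus strand, has 1 E-box at chr11:69098699-69098948, and Per3, on the minus strand, has 2 D-boxes at chr4:151044666-151044915.
Ciart: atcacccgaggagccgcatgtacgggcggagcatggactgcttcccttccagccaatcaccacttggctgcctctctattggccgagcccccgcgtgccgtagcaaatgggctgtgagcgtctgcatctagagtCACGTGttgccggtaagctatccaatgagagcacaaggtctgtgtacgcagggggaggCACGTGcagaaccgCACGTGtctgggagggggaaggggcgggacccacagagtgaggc
Per1: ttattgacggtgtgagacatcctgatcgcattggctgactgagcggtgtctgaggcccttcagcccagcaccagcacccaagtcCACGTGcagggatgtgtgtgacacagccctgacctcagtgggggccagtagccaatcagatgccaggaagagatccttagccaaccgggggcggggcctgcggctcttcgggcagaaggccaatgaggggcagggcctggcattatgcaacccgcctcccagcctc
Per3: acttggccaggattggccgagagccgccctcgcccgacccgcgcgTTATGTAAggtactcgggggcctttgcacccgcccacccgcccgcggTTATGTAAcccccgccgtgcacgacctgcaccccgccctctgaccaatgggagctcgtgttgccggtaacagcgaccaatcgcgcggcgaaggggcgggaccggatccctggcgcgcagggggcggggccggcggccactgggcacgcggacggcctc
CACGTG reads the same on both strands, and TTATGTAA was searched on both. Of the 22 clock genes 18 had a window, and 5 of these (27.8%) held CACGTG, namely Per1, Cry1, Tef, Ciart and Bhlhe41, where 6.05% of 27025 windows of the same length did. TTATGTAA was in 1 of the 18, that of Per3, and in 0.862% of all windows. The windows of Dbp and Hlf, also called higher in the week 5 fit, held neither. Of the glucocorticoid-responsive genes described next, 2 of 11 windows (18.2%) held CACGTG. These matches describe the letters in the windows and do not show binding.

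Per1, the period gene that glucocorticoids also induce, had 10.38, 9.94 and 9.76 in il15rb skin, against 8.59, 9.12, 8.46 and 8.26 in sham skin, a difference of 1.42 ± 0.43 (SE). Per3, the third period gene, differed by 1.22 ± 0.39. The il15rb and sham arrays did not overlap for either gene. The adjusted p was 0.183 and 0.2 in the fit of 47 arrays, and 0.0102 and 0.0145 in the week 5 fit.

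Dbp, whose transcript swings widely over the day, had 11.66, 11.93 and 11.86 in il15rb skin, against 10.77, 10.73, 10.37 and 10.75 in sham skin. Its difference of 1.16 carried an SE of 0.51 in the fit of 47 arrays, and the adjusted p there was 0.377. In the week 5 fit it was 0.00219, and 0.00595 without sham replicate 4. Hlf (0.86 ± 0.22), Tef (0.77 ± 0.25) and Ciart (0.58 ± 0.21) likewise passed in the week 5 fit and not in the fit of 47 arrays, with adjusted p of 0.00679, 0.00758 and 0.0102.

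The activators of the loop lay on the other side. Npas2 had 6.26, 6.77 and 6.85 in il15rb skin, against 7.30, 7.51, 7.23 and 7.76 in sham skin, a difference of -0.82 ± 0.30 (adjusted p = 0.0388 in the week 5 fit, and 0.0728 without sham replicate 4). Clock differed by -0.45 ± 0.13 (adjusted p = 0.0458 in the week 5 fit, and 0.0728 without that array). The other probe set of Npas2 did not lie lower, at 6.06 in il15rb skin and 5.94 in sham skin (0.11, with overlap). Arntl had 9.17, 8.86 and 9.09 in il15rb skin, against 9.49, 9.53, 9.68 and 9.39 in sham skin, which did not overlap but did not pass either fit (adjusted p = 0.408 and 0.0793).

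Usp2, a ubiquitin protease that acts on clock proteins, had 10.22, 9.66 and 9.69 in il15rb skin, against 9.38, 9.40, 8.92 and 9.28 in sham skin. Its arrays did not overlap, and its difference of 0.61 ± 0.25 passed neither fit (adjusted p = 0.336 and 0.141). The repressors Cry1 and Cry2 differed by 0.44 and 0.38 with no overlap, and without passing. Nr1d1, the repressor REV-ERB alpha, differed by -0.04, and Nfil3, which competes for the D-box, by 0.02, both with overlapping arrays. The mean log2 signal of the clock genes was 9.33 to 9.36 in il15rb skin, 9.23 to 9.32 in PBS ip skin and 8.83 to 9.01 in sham skin. In the week 5 fit no clock gene differed between il15rb and PBS ip skin at an adjusted p under 0.05, and the lowest was 0.61 for Arntl. The labels give no time of day at which skin was taken, so hour of collection and group cannot be told apart.

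Glucocorticoids act on skin through a nuclear receptor that switches on a set of genes shared by many tissues, among them chaperones, transcription factors and metallothioneins. All 12 genes of this list were tested and all 12 differences were positive, with a median of 0.59 (0.57 without sham replicate 4). The il15rb and sham arrays did not overlap for 10 of the 12, where 6.24% of all genes were higher without overlap. None passed in the fit of 47 arrays. In the week 5 fit 7 passed as higher, both with and without sham replicate 4 (0.381% and 0.277% of all genes did): Tsc22d3, Sgk1, Fkbp5, Errfi1, Mt1, Zbtb16 and Klf9.

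Tsc22d3 encodes GILZ, a leucine zipper protein that carries part of the anti-inflammatory action of glucocorticoids. It had 12.43, 12.09 and 12.13 in il15rb skin, against 10.90, 11.01, 10.69 and 10.67 in sham skin, a difference of 1.40 ± 0.41 (adjusted p = 0.0029 in the week 5 fit). PBS ip skin, at 11.75, 11.39, 11.75 and 11.26, lay between them with no overlap on either side.

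Fkbp5, a chaperone that damps the glucocorticoid receptor, had 10.95, 10.37 and 10.17 in il15rb skin, against 9.20, 9.17, 8.99 and 9.24 in sham skin. The difference was 1.35 ± 0.30, with an adjusted p of 0.0541 in the fit of 47 arrays and 0.00758 in the week 5 fit. Zbtb16 (PLZF), a zinc finger factor that dexamethasone induces, had 9.0, 9.71 and 9.10 in il15rb skin, against 7.87, 8.27, 7.82 and 7.87 in sham skin (1.31 ± 0.38, adjusted p = 0.014 in the week 5 fit). All il15rb arrays lay above all sham arrays for both genes.

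Sgk1, a kinase of ion transport, differed by 0.52 with little spread in either group (12.30 ± 0.04 in il15rb skin and 11.77 ± 0.06 in sham skin, SD, n = 3 and 4). Errfi1, an inhibitor of the EGF receptor, had 11.50 ± 0.25 in il15rb skin and 10.64 ± 0.10 in sham skin (SD), a difference of 0.86. Mt1 differed by 0.75 and Klf9 by 0.65. Their adjusted p in the week 5 fit were 0.00679 for Sgk1, 0.0103 for Errfi1 and Mt1, and 0.0265 for Klf9. Dusp1 (0.26) and Cdkn1a (0.10) had overlapping arrays and did not pass.

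The groups were stepped for this list. The mean log2 signal of its members was 10.90 to 11.06 in il15rb skin, 10.52 to 10.66 in PBS ip skin and 10.24 to 10.29 in sham skin, with no overlap at either step. Between il15rb and PBS ip skin 1 of the 12 passed the week 5 fit, Errfi1, at 0.72 (adjusted p = 0.028), and none passed the fit of 47 arrays. For this list too, hour of collection and injection of sham mice are not given by the labels and cannot be told apart from group.

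**Figure D2:**
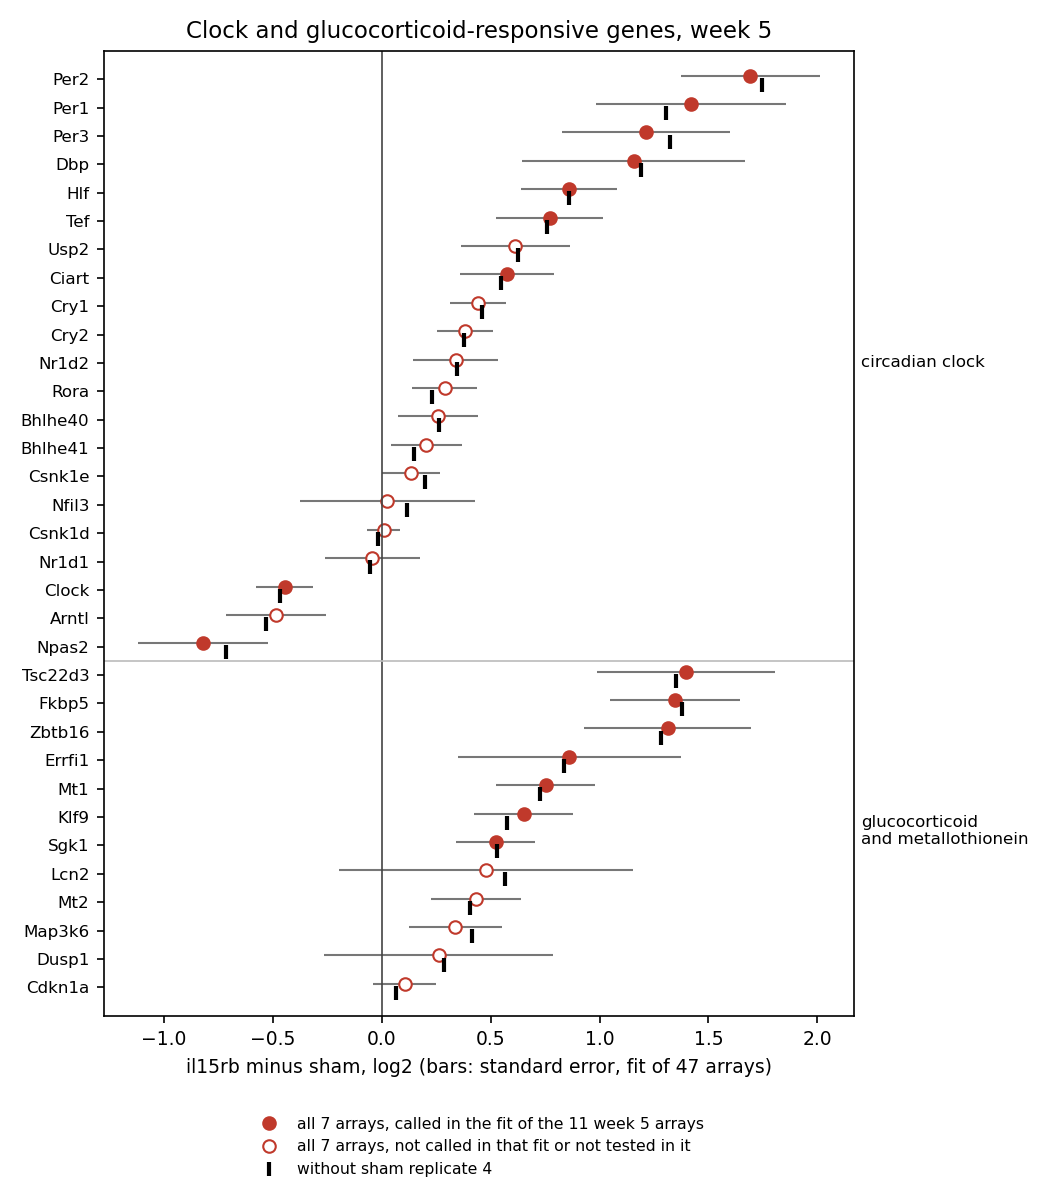
Differences of 21 clock genes and 12 glucocorticoid-responsive genes (il15rb minus sham, log2, x axis; genes on the y axis); circles are all 7 arrays, filled where called in the week 5 fit, with bars for the SE of the fit of 47 arrays, and ticks are the differences without sham replicate 4. The ticks stay close to the circles, from Per2 at 1.69 and 1.75 down to Npas2 at -0.82 and -0.72.

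Granzyme C aside, several lymphocyte genes had lower values in il15rb skin. In these bulk samples fewer cells of a type and less RNA per cell cannot be told apart. Of 19 cytotoxic lymphocyte genes listed, 12 were tested and 11 had a negative difference, with a median of -0.46 (-0.42 without sham replicate 4). For 7 of the 12, the il15rb arrays all lay below the sham arrays (6.90% of all genes did). The week 5 fit called 2 as lower, Klrd1 and Nkg7, where 0.235% of all genes were. Of 22 T cell genes 15 were tested, with a median of -0.40 and 8 lower without overlap. The week 5 fit called 2 of them as lower, Cd3g and Cd3d, beside the same 0.235% of all genes. None passed in the fit of 47 arrays.

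Klrd1 encodes CD94, which pairs with NKG2 proteins on natural killer cells and CD8 T cells. It had 5.82, 6.14 and 5.81 in il15rb skin, against 6.80, 6.91, 7.30 and 7.04 in sham skin. The groups did not overlap, and the difference was -1.09 ± 0.26 (adjusted p = 0.0764 in the fit of 47 arrays and 0.00758 in the week 5 fit). It was -1.08 without sham replicate 4 (adjusted p = 0.0216 in the week 5 fit).

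Nkg7, a membrane protein of cytotoxic granules, had 7.41, 7.43 and 7.37 in il15rb skin, against 8.16, 8.15, 8.64 and 8.26 in sham skin, a difference of -0.90 ± 0.27 (adjusted p = 0.014 in the week 5 fit). Cd3g, a chain of the T cell receptor complex, had 7.87, 8.23 and 7.91 in il15rb skin, against 8.78, 8.92, 9.32 and 8.75 in sham skin. Its difference was -0.94 ± 0.24 (adjusted p = 0.0155 in the week 5 fit, and 0.023 without sham replicate 4). Cd3d, another chain of the complex, differed by -0.67 ± 0.23 (adjusted p = 0.0363 in the week 5 fit). None of these genes had overlapping arrays.

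Other receptor and granule genes lay on the same side without passing either fit. Cd247, the CD3 zeta chain, had 6.29 ± 0.10 in il15rb skin and 6.85 ± 0.23 in sham skin (SD, adjusted p = 0.0764 and 0.0529). Cd7 had 7.44 ± 0.17 in il15rb skin and 8.03 ± 0.19 in sham skin (SD, adjusted p = 0.0944 and 0.0656). Cd3e differed by -0.49, Ctsw, a cathepsin of killer cells, by -0.71, and Tnfsf10, the death ligand TRAIL, by -0.69. All of these had arrays that did not overlap. Another probe set of Cd247, at 6.17 in il15rb skin and 6.18 in sham skin, did overlap (-0.008), and its remaining probe sets lay near background.

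Of 18 genes of skin resident and gamma delta T cells 6 were tested, with 4 lower without overlap (6.90% of all genes were) and a median of -0.52. Cxcr6, a homing receptor of resident T cells, had 5.65, 6.04 and 6.05 in il15rb skin, against 7.0, 6.6, 7.14 and 6.94 in sham skin (-1.01 ± 0.32, adjusted p = 0.2). Itgae, the integrin CD103 that holds T cells in the epidermis, had 7.86 ± 0.30 in il15rb skin and 8.61 ± 0.13 in sham skin (SD, adjusted p = 0.23). Trgv4, a gamma chain segment, had 7.60 ± 0.10 in il15rb skin and 8.20 ± 0.34 in sham skin (SD). It passed only in the week 5 fit without sham replicate 4, at -0.75 (adjusted p = 0.0216).

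Some genes of these cells did not lie lower. Cd8a had 7.97, 7.66 and 7.51 in il15rb skin, against 7.49, 7.27, 7.45 and 6.74 in sham skin, which did not overlap, with higher values in il15rb skin. The difference of 0.47 ± 0.19 did not pass (adjusted p = 0.311) and was 0.31 without sham replicate 4. The 4 other probe sets of Cd8a were at 5.31 or below in il15rb skin and overlapped. Cd4 differed by -0.13 and Zap70 by -0.07, both with overlap. Gzmb, granzyme B, was low in both groups (6.49 ± 0.03 in il15rb skin and 6.31 ± 0.10 in sham skin, SD). Its il15rb arrays lay above its sham arrays without overlap (0.18), as for 6.24% of all genes, and it did not pass. Of 9 granzymes listed 4 were tested, with a median of -0.02. Gzma (4.95 in il15rb skin and 5.10 in sham skin) and Ifng (4.81 in il15rb skin and 4.69 in sham skin) lay near background in both groups.

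**Figure D3:**
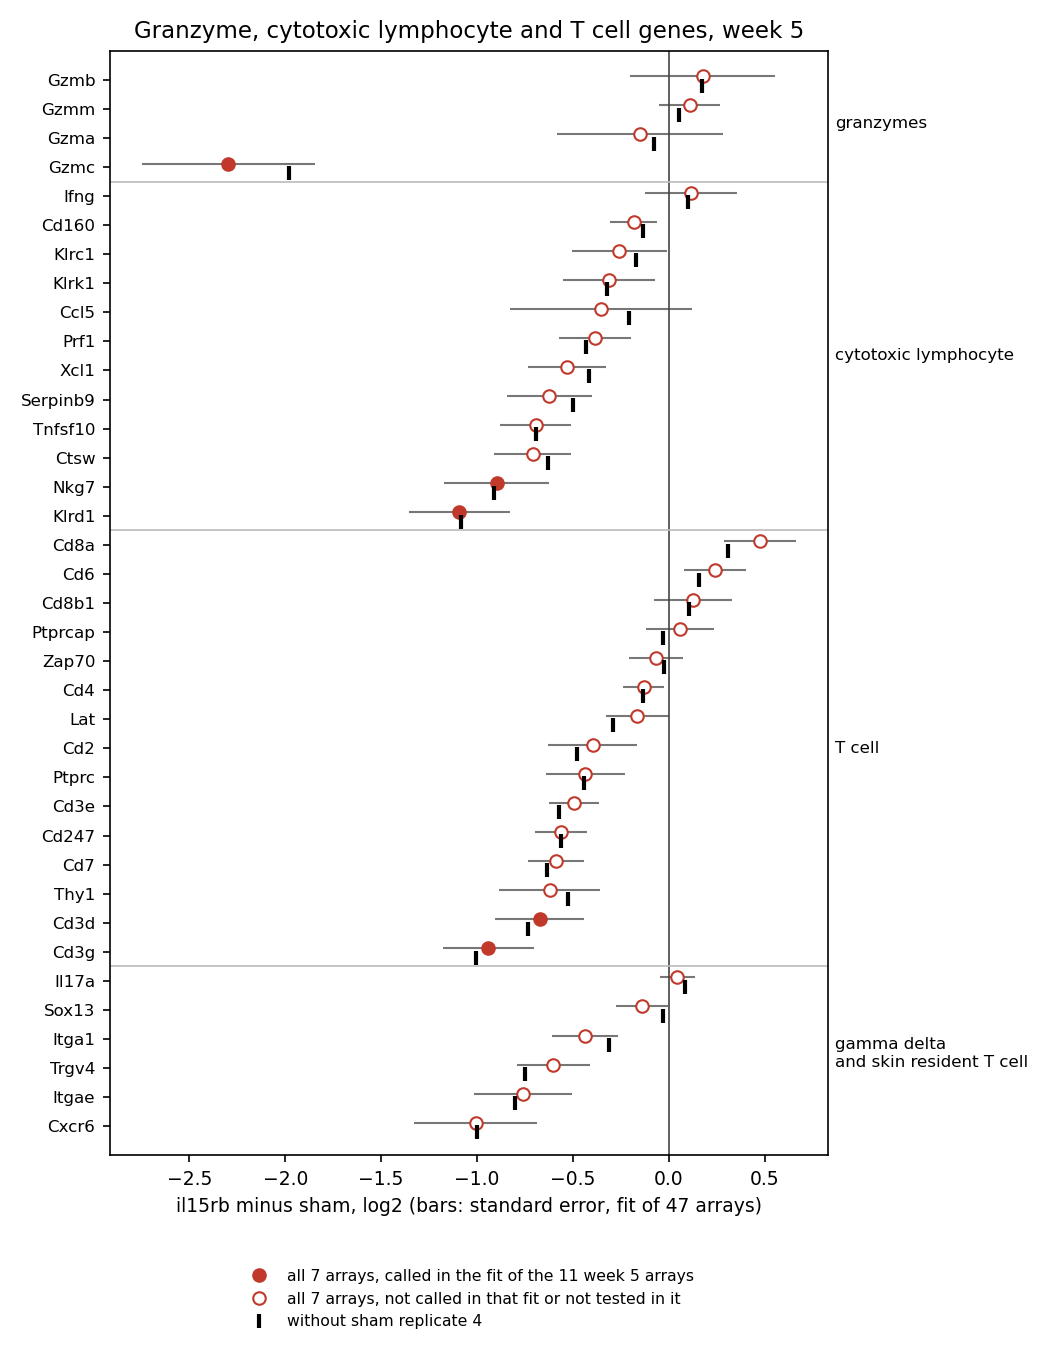
Differences of granzyme, cytotoxic lymphocyte, T cell and skin resident T cell genes (il15rb minus sham, log2, x axis; genes on the y axis); circles are all 7 arrays, filled where called in the week 5 fit, with bars for the SE of the fit of 47 arrays, and ticks are the differences without sham replicate 4. Gzmc lies farthest left at -2.30, Klrd1 at -1.09, and Cd8a lies to the right at 0.47.

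All 10 genes that passed between il15rb and PBS ip skin in the fit of 47 arrays were lower in il15rb skin. The week 5 fit also called genes as higher, Errfi1 (adjusted p = 0.028) and Ddit4 (adjusted p = 0.029) among them. Of these 10, called in the fit of 47 arrays (0.0733%), 4 were in the cytotoxic list (Klrd1, Nkg7, Ctsw and Tnfsf10), 3 in the T cell list (Cd3g, Cd247 and Cd7) and 2 in the resident list (Cxcr6 and Trgv4). The last, with the largest difference of the 10 at -1.83 (adjusted p = 0.0217), was Ddx60, an RNA helicase of the type I interferon list. Gzmc missed the threshold there, at -2.03 (adjusted p = 0.053). These values share the il15rb arrays with the comparison with sham skin. At week 13, on other arrays, Klrd1 was 5.91, 6.45 and 6.35 in il15rb skin, against 8.84, 8.32 and 9.58 in PBS ip skin. The difference was -2.68 ± 0.28, in a comparison where 10.6% of all genes passed as lower.

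The RNA of the antibody's own target did not differ beyond the spread between arrays. Il2rb had 5.92, 6.18 and 6.07 in il15rb skin, against 5.99, 6.19, 6.33 and 6.27 in sham skin (-0.14 ± 0.14, adjusted p = 0.758). An antibody binds the protein, so this level does not check the treatment. The ligand Il15 (8.41 ± 0.04 in il15rb skin and 8.37 ± 0.44 in sham skin, SD) and the alpha chain Il15ra (8.72 ± 0.04 in il15rb skin and 8.66 ± 0.16 in sham skin, SD) overlapped between groups. Jak3, the kinase of the common gamma chain, was below the filter on low values, at 5.45 in il15rb skin and 5.37 in sham skin. Of 28 genes of the pathway 21 were tested, none passed, and their median was 0.01.

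Macrophage and monocyte genes mostly had lower values, and 2 passed the week 5 fit as lower, where 0.235% of all genes did (1 without sham replicate 4, where 0.155% did). Of 29 listed 28 were tested, 26 had a negative difference, and 14 were lower without overlap, beside 6.90% of all genes. The median was -0.42, and -0.34 without sham replicate 4. Lyz2, the lysozyme of myeloid cells, had 11.01, 10.81 and 10.77 in il15rb skin, against 11.76, 11.31, 11.93 and 11.89 in sham skin. It differed by -0.86 ± 0.28 (adjusted p = 0.0221 in the week 5 fit, and 0.0522 without sham replicate 4). Ly86, the partner of the receptor RP105, had 8.42 ± 0.09 in il15rb skin and 9.41 ± 0.32 in sham skin (SD, adjusted p = 0.0293 in the week 5 fit, and 0.0334 without that array).

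Ccr2, the receptor that calls monocytes into tissue, had 6.05, 6.28 and 6.82 in il15rb skin, against 7.40, 7.48, 7.63 and 8.29 in sham skin. The arrays did not overlap, and the difference of -1.32 ± 0.37 did not pass (adjusted p = 0.156). Another probe set of Ccr2, at 6.33 in il15rb skin and 6.38 in sham skin, overlapped (-0.05). The remaining Ccr2 probe sets lay near background, at -0.18 with overlap and -0.48 without. Aif1 (IBA1) had 6.48 ± 0.10 in il15rb skin and 7.44 ± 0.42 in sham skin (SD, adjusted p = 0.255), also without overlap. Sham replicate 4 had the highest mean of the myeloid list among sham arrays, at 9.06, where the other 3 lay between 8.47 and 8.75 and il15rb skin between 8.28 and 8.32. PBS ip skin, at 8.67 to 9.27, was above il15rb skin.

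Genes that interferon gamma induces had low values in il15rb skin, and none passed in either fit. Of 18 tested members 11 were lower without overlap, where 6.90% of all genes were, with a median of -0.49 (-0.41 without sham replicate 4). Cxcl9, a chemokine that draws T cells through CXCR3, had 5.67, 6.23 and 6.07 in il15rb skin, against 7.74, 6.65, 7.32 and 8.68 in sham skin, with no overlap (-1.61 ± 0.69, adjusted p = 0.356). Iigp1, an immunity-related GTPase, had 7.62, 8.51 and 7.61 in il15rb skin, against 9.21, 8.66, 9.02 and 9.52 in sham skin (-1.19 ± 0.69, adjusted p = 0.52). PBS ip skin spread widely, at 12.93, 12.48, 9.24 and 9.62 for Iigp1.

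Of the type I interferon genes, 8 of 27 were lower without overlap, beside the same 6.90% of all genes, with a median of -0.19. Ifit1 had 5.95, 6.10 and 6.50 in il15rb skin, against 6.73, 6.36, 6.66 and 7.13 in sham skin, which overlapped. Class I and class II presentation genes differed little, with medians of -0.02 and -0.11, and H2-K1 (0.08) and H2-Ab1 (-0.05) overlapped.

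**Figure D4:**
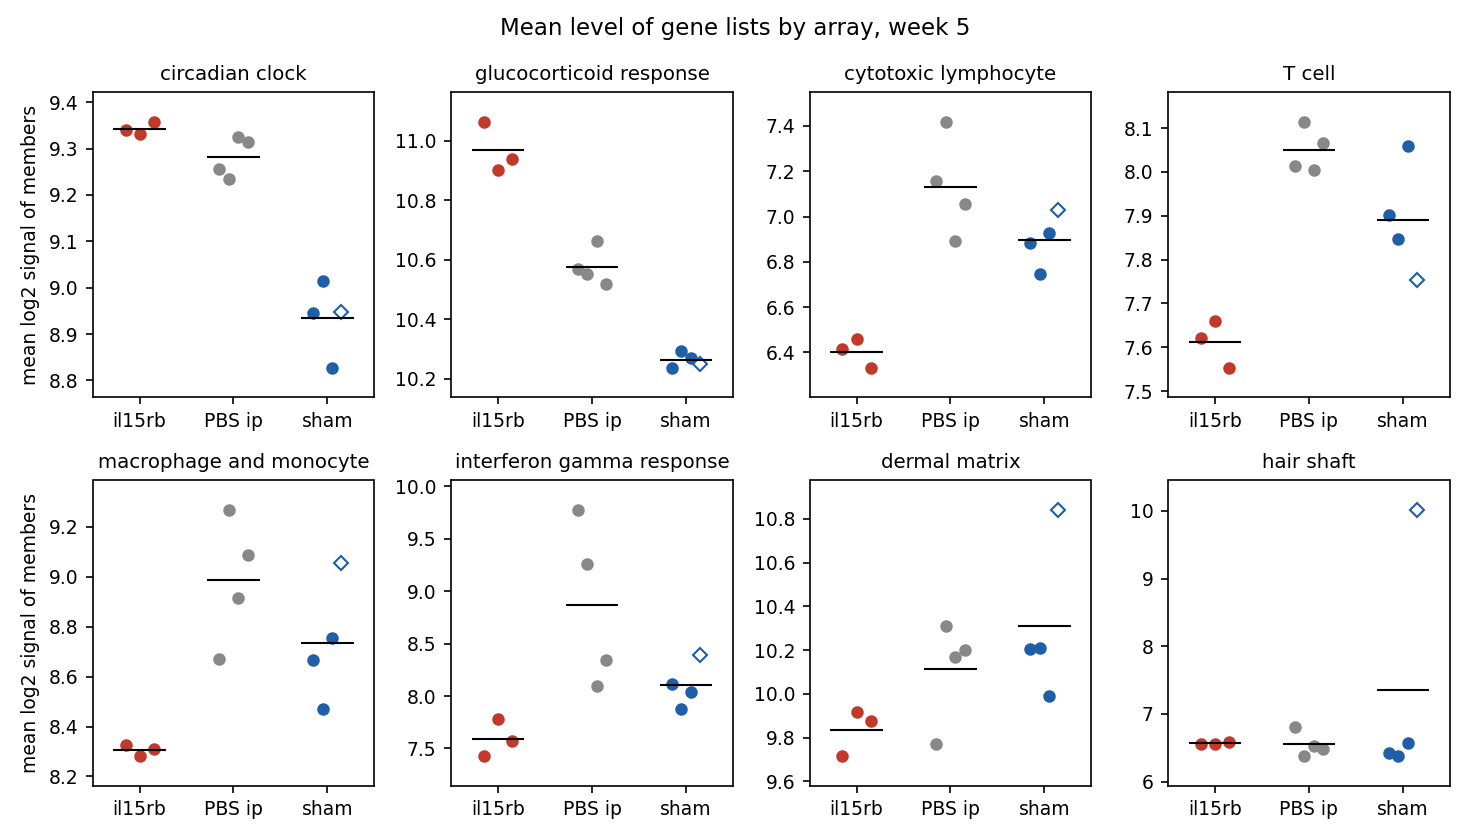
Mean log2 signal of the tested members of 8 gene lists (y axis), with 1 point per array, in il15rb (3 arrays), PBS ip (4) and sham skin (4) at week 5; black lines are group means and the open diamond is sham replicate 4. The clock list has PBS ip (9.23 to 9.32) near il15rb skin, the glucocorticoid list has 3 separate levels, and the hair shaft list has sham replicate 4 alone at 10.01.

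The structural genes of skin depended on sham replicate 4. Hair shaft keratins had a mean of 6.56 to 6.58 in il15rb skin, against 6.38 to 6.57 in the sham replicates 1 to 3 and 10.01 in replicate 4. Their median difference was -0.87 with that array and 0.09 without it. Keratin associated proteins, which harden the shaft, moved likewise, with -1.67 and -0.12. The inner root sheath, the sleeve that moulds the shaft, had -0.62 with the array and 0.20 without it. In this list il15rb replicate 3 also stood apart, with a mean of 8.17 against 6.94 and 7.12 in the other il15rb arrays. Krt71, a keratin of that sheath, had 6.93, 6.98 and 7.23 in il15rb skin, against 6.77, 6.71, 6.83 and 11.65 in sham skin. No member of these 3 lists passed with or without the array.

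All 30 tested genes of the dermal matrix had a negative difference, with 14 lower without overlap (6.90% of all genes were, and 7.67% without sham replicate 4) and none called. The list's mean was 9.72 to 9.92 in il15rb skin, against 9.99 to 10.21 in the sham replicates 1 to 3 and 10.84 in replicate 4, and its median was -0.47 with that array and -0.26 without it. Lum, the proteoglycan lumican, had 11.45, 11.89 and 11.80 in il15rb skin, against 12.52, 12.11, 12.36 and 12.80 in sham skin (-0.74 ± 0.24, adjusted p = 0.219). Loxl1, a crosslinking oxidase, differed by -0.84 ± 0.28 with no overlap (adjusted p = 0.23), and Col1a1 by -0.95 ± 0.44 with overlap (adjusted p = 0.404). The dermal and myeloid lists both had negative medians, and the part of one in the other was not tested.

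Other cell types and tissues of the biopsy had no member that passed the fit of 47 arrays. All 9 endothelial genes had a negative difference, with a median of -0.29 (-0.22 without sham replicate 4). Of the 9, 1 was lower without overlap, where 6.90% of all genes were. Cell division genes spread widely, with list means of 7.42, 8.03 and 8.49 in il15rb skin, against 7.99 to 8.56 in sham skin. Of the 24 tested 23 were negative, with a median of -0.34 (-0.21 without sham replicate 4) and none without overlap. Mast cell genes had a median of -0.38 (-0.11 without it), and Schwann cell genes one of -0.18 (-0.16 without it). Medians were 0.06 for the cornified envelope, 0.10 for the sebaceous gland, -0.06 for skeletal muscle and -0.08 for adipocytes, and no member of these 8 lists passed in the week 5 fit. Xist lay between 12.31 and 12.55 in all 7 il15rb and sham arrays. PBS ip replicate 5 was at 7.01, so this context array stood apart in a gene of the inactive X chromosome.

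**Figure D5:**
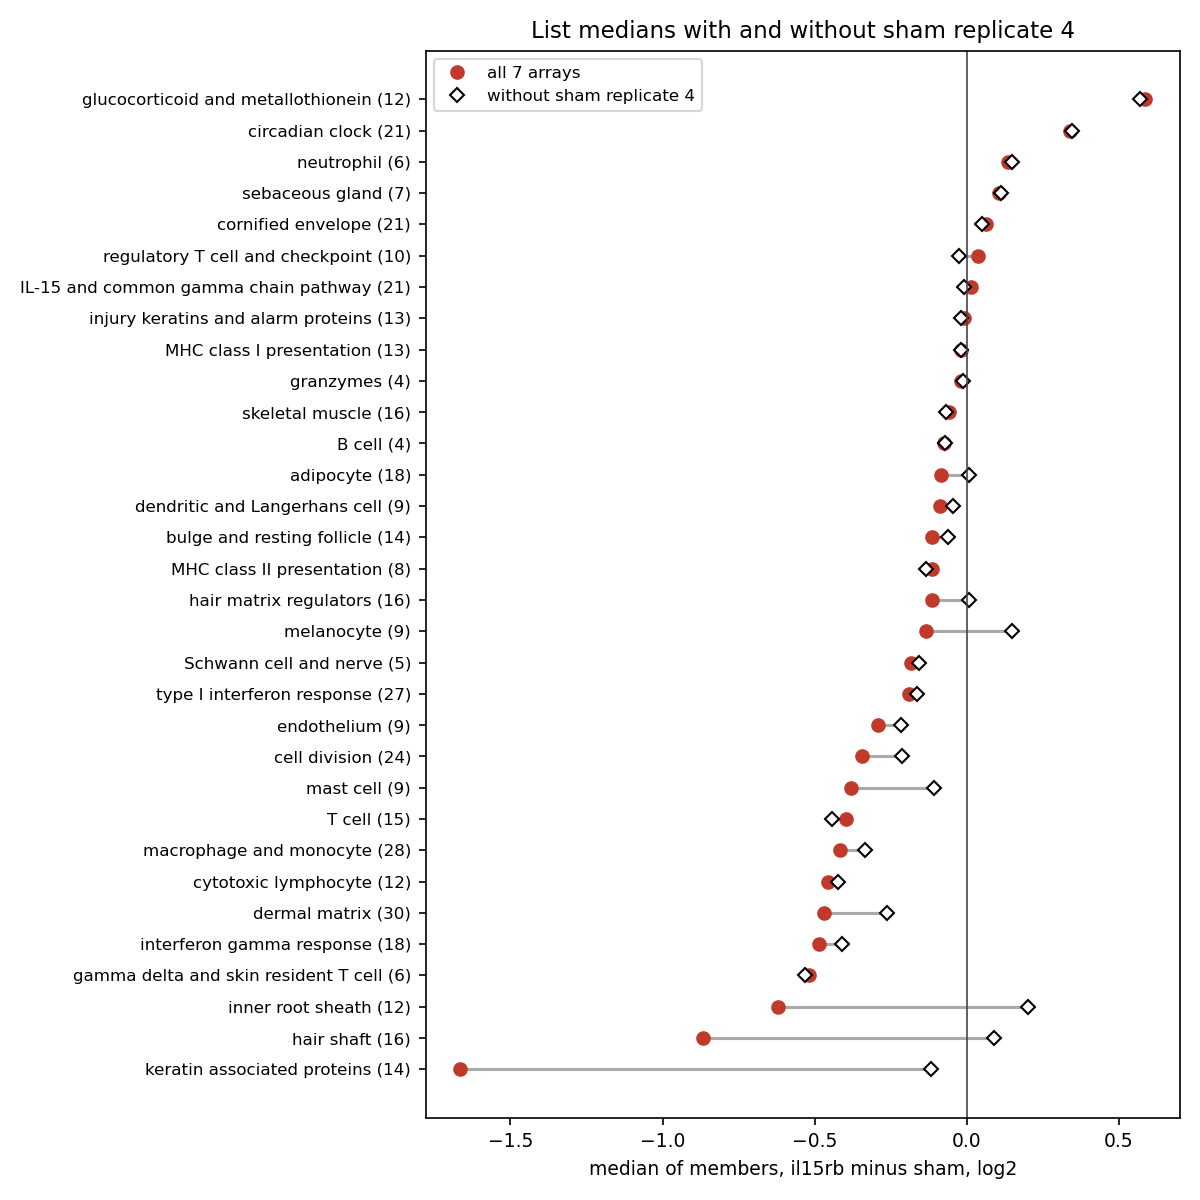
Median difference of each gene list with at least 4 tested members (il15rb minus sham, log2, x axis; number tested in brackets); filled circles are all 7 arrays and open diamonds leave out sham replicate 4. Glucocorticoid (0.59 and 0.57) and clock genes (0.34 with and without) keep their place, and the keratin associated proteins lie at -1.67 with sham replicate 4 and at -0.12 without it.

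Beyond the lists, the largest positive difference without overlap, both with and without sham replicate 4, was that of Fam107a, an actin-binding protein that stress and glucocorticoids induce. Fam107a had 8.24, 7.32 and 7.30 in il15rb skin, against 5.52, 5.99, 5.91 and 6.02 in sham skin (1.76 ± 0.41, adjusted p = 0.0725 in the fit of 47 arrays and 0.0172 in the week 5 fit). Il22ra2, a soluble receptor that neutralises IL-22, had 11.38, 10.48 and 10.22 in il15rb skin, against 9.03, 9.11, 9.25 and 8.40 in sham skin. Its difference was 1.75 ± 0.48 (adjusted p = 0.132 in the fit of 47 arrays and 0.0172 in the week 5 fit). Angptl7, an angiopoietin-like protein that glucocorticoids induce in the eye, had 8.63, 8.86 and 8.37 in il15rb skin, against 7.58, 7.53, 7.38 and 7.22 in sham skin. Its difference was 1.19 ± 0.25 (adjusted p = 0.0541 in the fit of 47 arrays and 0.00679 in the week 5 fit). For these 3 genes PBS ip skin, with means of 7.23 for Fam107a, 10.34 for Il22ra2 and 8.25 for Angptl7, lay nearer to il15rb skin.

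Among the largest negative differences, Klb, the beta-klotho coreceptor of FGF21, had 6.24, 5.98 and 5.57 in il15rb skin, against 6.74, 6.75, 7.14 and 7.91 in sham skin (-1.20 ± 0.25, adjusted p = 0.0522). Gfra2, a receptor for neurturin, had 8.18, 7.94 and 8.33 in il15rb skin, against 9.19, 9.25, 8.99 and 9.20 in sham skin (-1.01 ± 0.23, adjusted p = 0.058). Neither passed in either fit. Another probe set of Gfra2 was also lower without overlap (-0.71), and its remaining probe sets overlapped, at 0.07, 0.20 and 0.10. Bank1, a B cell scaffold, differed by -1.06 with all arrays and by -0.44 without sham replicate 1, whose value of 8.49 stood above 5.81 to 6.41 in the other 3.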

How the data were processed

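Skin RNA was hybridised to Affymetrix mouse arrays, with biotin labelling per the labels' protocols. The authors deposited log2 signals. The submitters' processing notes name RMA, without a version. RMA corrects background, normalizes between arrays by quantiles and summarises probes, which compresses low signals. Whether all arrays were normalized together is not given in the sources used here. Scanner files were not used here, so no detection call was at hand and the number of arrays limits the precision.

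Probe sets were named from the platform annotation: of 45101, 34958 name 1 gene, 932 several and 9211 none. The probe set of highest mean stood for each of 18194 genes, and 13648 above the table median of 6.70 in at least 3 arrays were tested. limma 3.58.1 (R 4.3.3) fitted 1 mean per group over 47 arrays in 13 groups, with Benjamini-Hochberg adjustment over all genes tested. One further week 5 array, PBS ip by its title but IL15 by its treatment label, entered no fit. An exact permutation test of 1 gene over 3 and 4 arrays cannot go below a p of 0.0571, so none was run.

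Members and gene lists were chosen with earlier results of these data known. Genes are named if called, if among the 10 largest rises or falls at an unadjusted p under 0.01 without overlap both with and without sham replicate 4, if among the 4 members of smallest p in a list, or from a fixed panel. Further members give a list's range. Genes chosen after their values were seen are said to be so. On simulated data for this comparison with 13648 genes, the fit recovered 72% of 1.5-fold, 92% of 2-fold and 98% of 4-fold changes, with 4.26% false calls. These rates describe the simulated data only. In the real fit over all groups, Per2 (3.23-fold higher) and Gzmc (4.91-fold lower) passed. Fam107a (3.38-fold higher, adjusted p = 0.0725 by limma) and Tsc22d3 (2.63-fold higher, adjusted p = 0.176) did not. A gene that was not called can thus differ by more than 2-fold. Alternatives covered the arrays left out or fitted, normalization, filter, probe sets, variance trend, the array of conflicting labels and a replicate block. Replicate numbers did not pair il15rb with sham arrays (correlations of deviations 0.13, -0.14 and 0.06).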

Additional observations from a re-analysis of the deposited data

Results flagged for a closer look

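Of 161 named genes examined, 22 had 1 sham array far from the other 3 (by Dixon's gap over range, which chance passes in about 1 of 20 groups). In 18 of them it was sham replicate 4. The named genes were chosen with these data known and include members of the hair lists, for which replicate 4 was already set apart. The count thus describes these genes and is not a test of that array. Groups of 3 arrays, such as il15rb, were not examined.

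Replicate 4 was far above the other sham arrays in genes of the growing hair follicle. In the hair shaft list it had 10.1 for Krt83, 11.7 for Krt86, 10.7 for Krt31 and 10.9 for Krt33b. In keratin associated proteins it had 13.4 for Krtap15, 12.3 for Krtap1-5, 12.8 for Krtap16-3 and 12.7 for Krtap7-1. In the inner root sheath it had 10.2 for Crym, 10.3 for Krt26, 12.5 for Tchh and 11.7 for Krt71. The same array was high for Wnt5a at 9.0, for the collagen gene Col1a2 at 14.1, for the melanocyte genes Mlana at 8.78 and Tyr at 7.13, and for the interferon-induced Ddx60 at 7.08. It was low for Sh3d21 at 7.73.

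For 4 genes it was another sham array. Leo1 was low in replicate 1 at 8.45, Zbtb16 high in replicate 2 at 8.27, Havcr2 high in replicate 3 at 7.58, and Dbp low in replicate 3 at 10.4. For Zbtb16 and Dbp the il15rb arrays, from 9.0 and from 11.66 upward, stayed above every sham array.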

How the results depend on the processing

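The count of genes called, 4 in the fit of 47 arrays, depended on the arrays used. Leaving out 1 of the 7 arrays at a time gave 0 to 47 calls (0 by limma without il15rb replicate 1 or 2, where 921 and 1153 genes had an unadjusted p under 0.05, 47 without il15rb replicate 3, 28 without sham replicate 3, and 1 without sham replicate 4). The count of genes whose groups did not overlap, 1794, was 2121 to 3615 in the same settings. Leaving out an array cannot create overlap, so this count could not fall except through the filter, and its rise carries no information. The week 5 fit gave 76 calls, 53 without sham replicate 4 (chosen after seeing the data), and the 7 arrays alone 22 (Per2 and none of the other 3). Quantile normalization gave 7, array medians subtracted 9, no filter 7, a filter over the 7 arrays 16 and the mean of all probe sets 7. Placing the array of conflicting labels in il15rb gave 39 calls and 1111 genes without overlap. With the replicate number as a replicate block in the week 5 fit 9 genes were called, 1 of them (Per2) among the 4, and 1 of 3 il15rb arrays, replicate 3, correlated best with the sham array of its own number. The variance trend gave 4. Per2 was lost without sham replicate 1 or 4, without il15rb replicate 1 or 2, and with the mean of its probe sets, at 1.66 to 1.79 on the single probe set and 0.89 on the mean. Gzmc was lost in 4 of the 7 settings that left out an array, and kept its sign in all. Of 161 named genes 1, Ighm, changed sign by more than its spread, at 0.051 with the mean of its probe sets, and the cause was not tested.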

Other observations

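The array titled PBS ip week 5 replicate 1, whose treatment label is IL15, was in no group. Its values were 4.62 for Gzmc, 5.82 for Klrd1, 6.90 for Nkg7, 7.40 for Cd3g, 5.71 for Cxcl9, 10.5 for Fkbp5, 9.0 for Zbtb16 and 7.88 for Per2. For Gzmc, Klrd1, Cxcl9 and Fkbp5 these lie within the range of the 3 il15rb arrays and outside the range of the 4 PBS ip arrays and of the 4 sham arrays. Nkg7 and Cd3g lie below every array of these 3 groups.

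Genes of the week 5 fit outside the lists, picked after their values were seen, included Ddit4, an inhibitor of mTORC1 that glucocorticoids and stress induce, at 11.34, 11.34 and 11.42 in il15rb skin, against 10.26, 10.33, 10.73 and 10.20 in sham skin. Sash3, an adaptor of lymphocytes, had 7.01, 6.96 and 7.0 in il15rb skin, against 7.93, 7.73, 7.93 and 7.94 in sham skin. Neither gene's groups overlapped.

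At week 13 the comparison of il15rb with PBS ip skin, on other arrays, called 25.7% of all genes. Zbtb16 was 2.72 ± 0.41 higher (SE) and Fkbp5 1.62 ± 0.32 higher, and Gzmc was 2.24 lower on the log2 scale, each without overlap. Other members of the glucocorticoid list did not all follow. Tsc22d3 was 1.24 higher (adjusted p = 0.0336 by limma) and Klf9 0.90 higher (adjusted p = 0.00559), Lcn2 was 1.91 lower on the log2 scale (adjusted p = 0.0475, with overlap), and Sgk1 (-0.09), Dusp1 (-0.44), Cdkn1a (-0.20), Map3k6 (0.00), Errfi1 (0.36), Mt1 (0.61) and Mt2 (0.28) did not pass. Klb, at -1.20 in il15rb against sham skin at week 5, was 1.6 higher in il15rb than in PBS ip skin at week 13. The groups set against each other differ between the weeks, and the difference was not tested.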
